A study of Homo sapiens with 6 samples.

Results

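A set of 8 target genes of the nuclear receptor PPARα that act in fat metabolism was followed through RNA from isolated mitochondria of HepG2 cells exposed to GenX. The 8 genes were ANGPTL4, PLIN2, FABP1, CPT1A, ACADM, HADHA, PDK4 and CREB3L3, taken by their Ensembl identifiers from the 57500 genes listed in each table, and all 8 were found in all 6 tables. HepG2 is an established human liver carcinoma line, and GenX is a fluorinated ether acid of the PFAS class, introduced to make fluoropolymers. The cells, labelled wild type, were exposed for 48 h to GenX at 10 µM or at 100 µM, and the controls (0 µM) received the solvent DMSO alone. Mitochondria were then isolated with a kit, and total RNA was depleted of ribosomal RNA and made into stranded libraries. There were 2 libraries per dose, 6 in all, and the labels place all of them in batch 1. The labels do not say whether the 2 libraries of a dose came from separate cultures, so the p-values below measure the spread between these libraries, which may be technical. The cells form a tumour line grown alone, so other cells of the liver are not part of the model.

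PPARα is a ligand-activated transcription factor that pairs with a retinoid X receptor (RXR) and binds DNA at a direct repeat of the core AGGTCA with a short spacer. In hepatocytes its ligands are fatty acids and synthetic agonists, and its targets take fatty acids up, carry them into mitochondria and peroxisomes, oxidise them and store the excess. ANGPTL4 encodes a secreted inhibitor of lipoprotein lipase, PLIN2 a coat protein of lipid droplets, and FABP1 the fatty acid binding protein of the hepatocyte cytosol. CPT1A is the outer-membrane transferase that commits fatty acids to mitochondrial oxidation, ACADM the medium-chain acyl-CoA dehydrogenase, and HADHA the alpha subunit of the mitochondrial trifunctional protein. PDK4 is a kinase that shuts down pyruvate dehydrogenase in fasting, and CREB3L3 a liver transcription factor of fasting and triglyceride metabolism. All 8 are genes of nuclear chromosomes, and their transcripts are translated outside the mitochondrial matrix.

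The promoters of 4 of these genes are shown because ANGPTL4 and PLIN2 held most of the counts on the set and because FABP1 and CREB3L3 held the receptor's core sequence. Sequences are from RefSeq on GRCh38.p14, which matched 8 of 8 genes, and are printed 5′ to 3′ on the strand of the gene, without the bases that the tables count as exon. Capitals mark a TATA box (TATAAA) in ANGPTL4, the core in FABP1 (TGACCT, the complement of AGGTCA read in reverse) and a direct repeat in CREB3L3 (AGGGCAGAGGTCA), and the PLIN2 stretch held none of the motifs searched. The stretches were chr19:8363905-8364150 on the plus strand for ANGPTL4, chr9:19127577-19127742 on the minus strand for PLIN2, chr2:88128117-88128312 on the minus strand for FABP1 and chr19:4153381-4153600 on the plus strand for CREB3L3.
ANGPTL4: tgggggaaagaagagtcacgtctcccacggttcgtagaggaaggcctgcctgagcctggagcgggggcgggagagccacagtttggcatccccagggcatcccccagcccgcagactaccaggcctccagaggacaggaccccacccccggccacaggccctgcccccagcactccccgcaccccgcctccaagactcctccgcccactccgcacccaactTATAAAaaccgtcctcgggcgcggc
PLIN2: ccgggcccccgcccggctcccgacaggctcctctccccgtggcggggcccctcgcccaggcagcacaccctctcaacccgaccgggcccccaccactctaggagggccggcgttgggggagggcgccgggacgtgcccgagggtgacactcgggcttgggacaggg
FABP1: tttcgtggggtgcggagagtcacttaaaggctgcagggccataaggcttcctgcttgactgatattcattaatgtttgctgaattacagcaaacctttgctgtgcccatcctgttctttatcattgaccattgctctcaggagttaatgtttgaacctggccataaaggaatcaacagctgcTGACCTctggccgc
CREB3L3: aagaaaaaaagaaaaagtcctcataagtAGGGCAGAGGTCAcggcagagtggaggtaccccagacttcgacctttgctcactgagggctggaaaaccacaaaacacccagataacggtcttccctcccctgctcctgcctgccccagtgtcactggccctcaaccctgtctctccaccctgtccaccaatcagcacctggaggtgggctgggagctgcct

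Motifs were searched in the 250 bases before each start of 35116 RefSeq promoters. The core AGGTCA or TGACCT, on either strand, lay in 2 of the 8 members and in 12.1% of all promoters. The direct repeat, 2 copies of AGGNCA with 1 base of any kind between them, on either strand and overlapping the core, lay in 1 of the 8 members, CREB3L3, and in 0.268% of all promoters. In CREB3L3 it ran from -222 to -210 relative to the start, and the core it contains from -215 to -210, while the core of FABP1 lay at -68 to -63. TATAAA on the gene's own strand lay in 2 of the 8 members, ANGPTL4 at -29 to -24 and FABP1 at -31 to -26, inside its counted exon and so not printed, and in 6.80% of all promoters. These are matches of letters in a window, and binding was not measured here.

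Depth and makeup differed strongly between the doses. Library totals ran from 29350 to 2141282 counts, a 73.0-fold range, with both 10 µM libraries the shallowest and both 100 µM libraries the deepest. Genes of the mitochondrial chromosome took 4.35% and 10.4% of counts in DMSO controls, 43.7% and 61.1% with 10 µM and 3.58% and 3.32% with 100 µM, so the members are given below as a percentage of the counts on nuclear genes. The nuclear RNA MALAT1 held 9.63% ± 6.34 (SD, n = 2) of nuclear-gene counts in DMSO controls, 0.0917% ± 0.0315 (SD, n = 2) at 10 µM and 2.84% ± 0.214 (SD, n = 2) at 100 µM. Hepatocyte markers, 13 in the list, held 1.30% ± 0.491, 0.0756% ± 0.0201 and 1.51% ± 0.00149 of nuclear-gene counts in the same order (SD, n = 2 each), with 3 to 9 of 13 detected below 100 µM and 11 and 12 at 100 µM. ALB, APOA2 and GPC3 had counts in 5, 6 and 6 of them. Endothelial markers had a count for at most 1 of 4, macrophage markers for at most 1 of 5 (CD14) and adipocyte markers for at most 1 of 5 (LEP, with 1 count), while 2 to 4 of 5 fibroblast markers were detected at 0.00340% to 0.0789% of nuclear-gene counts, led by COL1A1. The RNA came from isolated mitochondria, so shares of nuclear genes here are not levels in whole cells. What RNA the isolation kept from outside mitochondria was not measured. In bulk RNA, fewer cells of a kind and less RNA per cell cannot be told apart either.

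A gene with no count was read against a limit of 3 counts, which is 0.00130% and 0.00550% of nuclear-gene counts in DMSO controls, 0.0122% and 0.0263% with 10 µM, and 0.000145% and 0.000232% with 100 µM. In CPM, counts scaled to a common total over all genes of a library, the same limits are 12.5, 49.3, 68.9, 102, 1.40 and 2.24. A gene can therefore stand far above the limit of the 100 µM libraries and still go undetected at 10 µM. These limits, and the 95% intervals in parentheses below, cover counting error only.

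The 8 genes together were a small share of nuclear-gene counts at every dose, and ANGPTL4 and PLIN2 made up nearly all of it in DMSO controls and at 100 µM, but not at 10 µM. The set held 403 and 158 counts in DMSO controls, 7 and 4 with 10 µM and 6004 and 4202 with 100 µM. As a share of nuclear-gene counts this was 0.175% and 0.290% in DMSO controls, 0.0286% and 0.0351% with 10 µM, and 0.291% and 0.325% with 100 µM. The means were 0.232% ± 0.0812, 0.0318% ± 0.00460 and 0.308% ± 0.0240 (SD, n = 2 each). Both 10 µM libraries lay below the other 4, and the second control and the first 100 µM library had almost the same share. An exact two-sided permutation test of 2 libraries against 2 cannot go below p = 0.33, so these shares carry no p-value. ANGPTL4 and PLIN2 gave 97.0% and 98.7% of the members' counts in DMSO controls and 93.5% and 94.5% at 100 µM, against 42.9% and 25% at 10 µM, which is 3 of 7 and 1 of 4 counts. The other 6 members held 0.00521% and 0.00367% of nuclear-gene counts in DMSO controls, 0.0163% and 0.0263% at 10 µM on 4 and 3 counts, and 0.0189% and 0.0178% at 100 µM.

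**Figure D1:**
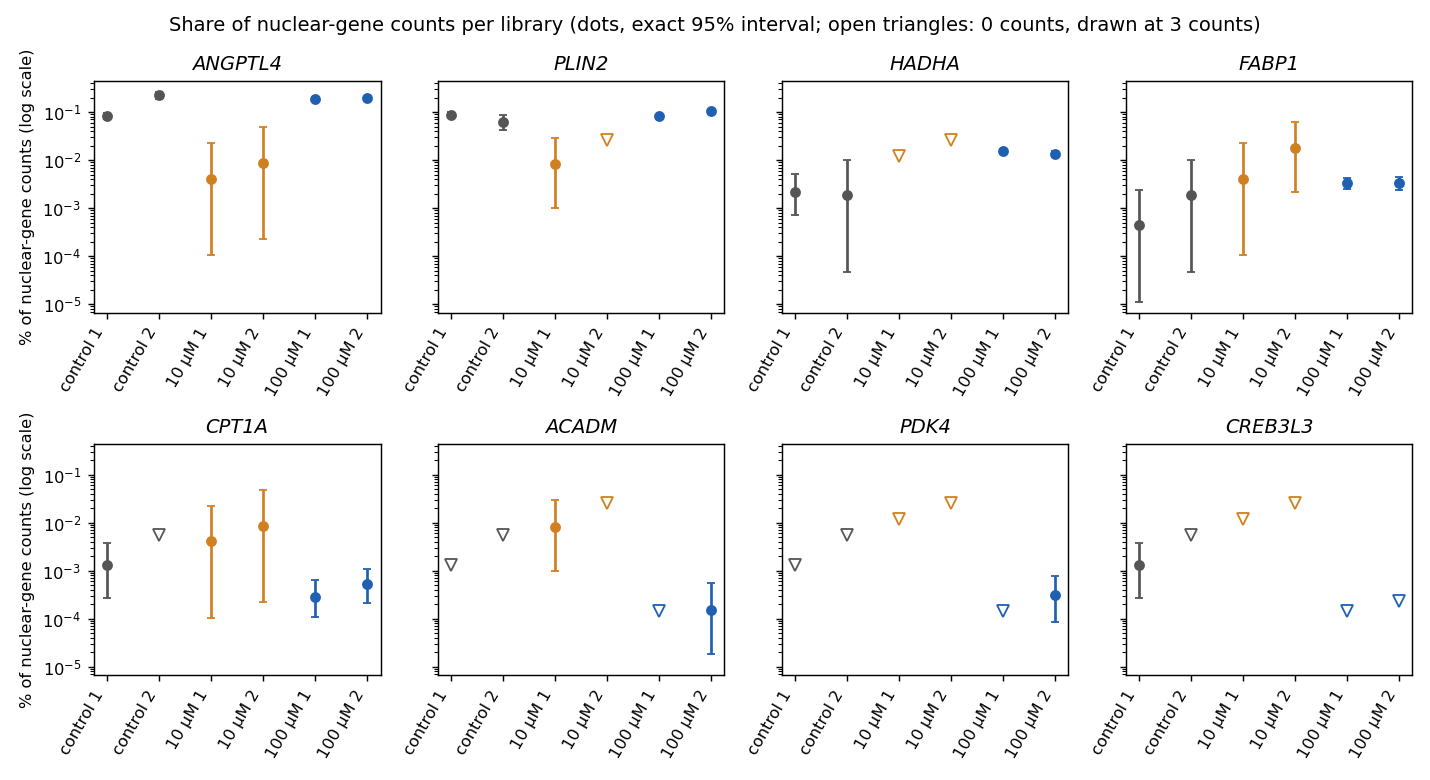
Each panel shows a member's percentage of nuclear-gene counts (vertical axis, log scale) in the 6 libraries (horizontal axis), with exact 95% intervals, and open triangles at 3 counts for libraries with 0 counts. ANGPTL4 and PLIN2 stand near 0.1% in controls and at 100 µM, HADHA is detected at 0.0153% and 0.0134% at 100 µM, and the other members lie near or under the limit of most libraries.

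ANGPTL4 (ENSG00000167772, chromosome 19, 8363289-8374373, plus strand) was the most abundant member. It held 195 and 122 counts in DMSO controls, 1 and 1 with 10 µM, and 3905 and 2594 with 100 µM. Its share of nuclear-gene counts was 0.0847% (0.0732 to 0.0975) and 0.224% (0.186 to 0.267) in DMSO controls, 0.00408% and 0.00877% at 10 µM, and 0.189% (0.183 to 0.195) and 0.200% (0.193 to 0.208) at 100 µM. The 10 µM libraries were the lowest, the 100 µM libraries lay between the 2 controls, and the controls differed from each other by more than both 100 µM libraries did. In CPM the same libraries read 810 and 2005, then 23.0 and 34.1, then 1824 and 1938. Ranked among nuclear genes by counts, ANGPTL4 stood at place 168 and 67 in DMSO controls and at 36 and 37 at 100 µM, while at 10 µM its 1 count tied it with all genes of that count. Its deposited exons share 1 base with RAB11B-AS1 on the other strand, a gene with 0 counts in 5 libraries and 5 in the first at 100 µM.

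Between 100 and 10 µM, ANGPTL4 was the member that passed the test. Counts pooled per dose gave a share 34.7-fold higher at 100 µM (9.61 to 287, counting error only), and edgeR's quasi-likelihood test gave a log2 fold change of 5.71 ± 1.29 (SE) with an adjusted p of 0.0408. By edgeR 1 of the 3 members tested was higher, where 0.755% of all 3180 tested genes were called higher and 2.86% were called in either direction, and DESeq2's Wald test, which called 13.8% of the genes it adjusted, called 0 members. An unadjusted p under 0.05 was reached here by all 3 tested members and by 1150 of the 3180 tested genes (36.2%). The call depended on the settings, and ANGPTL4 passed in 4 of 12 alternatives. With both libraries of each dose kept, its adjusted p ran from 0.00350 to 0.132 over the edgeR and DESeq2 alternatives. Its log2 fold change was 5.54 without the first 10 µM library and 6.05 without the second. In those fits the median over all tested genes was higher, at 8.69 and 8.37. For ANGPTL4 the value was 5.75 without the first 100 µM library and 5.64 without the second, beside medians of 3.45 and 3.44. Such fits leave 1 library in a group, so they are given by effect size alone. The mtDNA share, MALAT1 and the hepatocyte markers all differed between these doses in the direction given above, and their part in the result was not tested.

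At 10 µM against control the same gene was 20.0-fold lower in pooled share (5.49 to 166, counting error only). The fitted log2 fold change was -5.79 ± 1.29 (SE) with an edgeR adjusted p of 0.0813, which missed the threshold of 0.05. At 10 µM against control edgeR called 0 of the 3 tested members, and 0.597% of all tested genes, and 2 of the 3 had an unadjusted p under 0.05, as had 895 of all tested genes (28.1%). DESeq2 called 0 members there and 0.29% of the genes it adjusted. ANGPTL4 passed under 4 of 12 alternatives. With both libraries of each dose kept, its adjusted p ran from 0.0353 to 0.364 over the edgeR and DESeq2 alternatives. It passed with a mean of at least 5 CPM, where 95 of 11953 genes were called, and with a replicate block, where 75 of 3180 were. The other fits in which it passed left 1 control library. Its log2 fold change was -6.13 without the first control and -5.34 without the second.

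At 100 µM against control ANGPTL4 showed no difference beyond its error. The pooled share was 1.74-fold higher at 100 µM (1.55 to 1.95, counting error only), but the libraries of the 2 groups overlapped. The fitted log2 fold change was -0.08 ± 0.97 (SE), adjusted p = 0.975 by edgeR, and its sign turned under other scalings (0.41 with library sizes alone). edgeR called 0 of the 3 tested members at 100 µM against control and 0% of all tested genes, with 0 members and 573 genes (18%) at an unadjusted p under 0.05. DESeq2 called 11 genes there, 0.807% of those it adjusted, and none of them was a member.

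The whole set of tested genes also moved between the doses, which bears on how these values read. The median fitted log2 fold change over the 3180 tested genes was -3.18 at 10 µM against control, 0.35 at 100 µM against control and 3.52 at 100 against 10 µM. With genes that have no count in a group set to the 3-count limit the medians were -0.64, 0.28 and 1.21. Genes at 0 in both groups then take a value fixed by depth, 1.68 at 10 µM against control. HADHA, with 6 counts in the controls and 0 at 10 µM, takes 0.68 there. Medians at the limit thus depend on depth and are not a measured shift. Relative to the fitted medians ANGPTL4 stood at -2.61, -0.43 and 2.18 on the log2 scale, and PLIN2 at -1.83, -0.61 and 1.23. These relative values kept their sign in most of 11 edgeR alternatives. ANGPTL4 turned in 1 at 10 µM against control, 1 at 100 µM against control and 2 at 100 against 10 µM, and PLIN2 in 1, 0 and 1. At 100 against 10 µM ANGPTL4 turned whichever 10 µM library was left out. Its fitted values there, 5.54 and 6.05, lay below all-gene medians of 8.69 and 8.37. The turns of PLIN2, and that of ANGPTL4 at 10 µM against control, also came in fits without a 10 µM library.

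**Figure D2:**
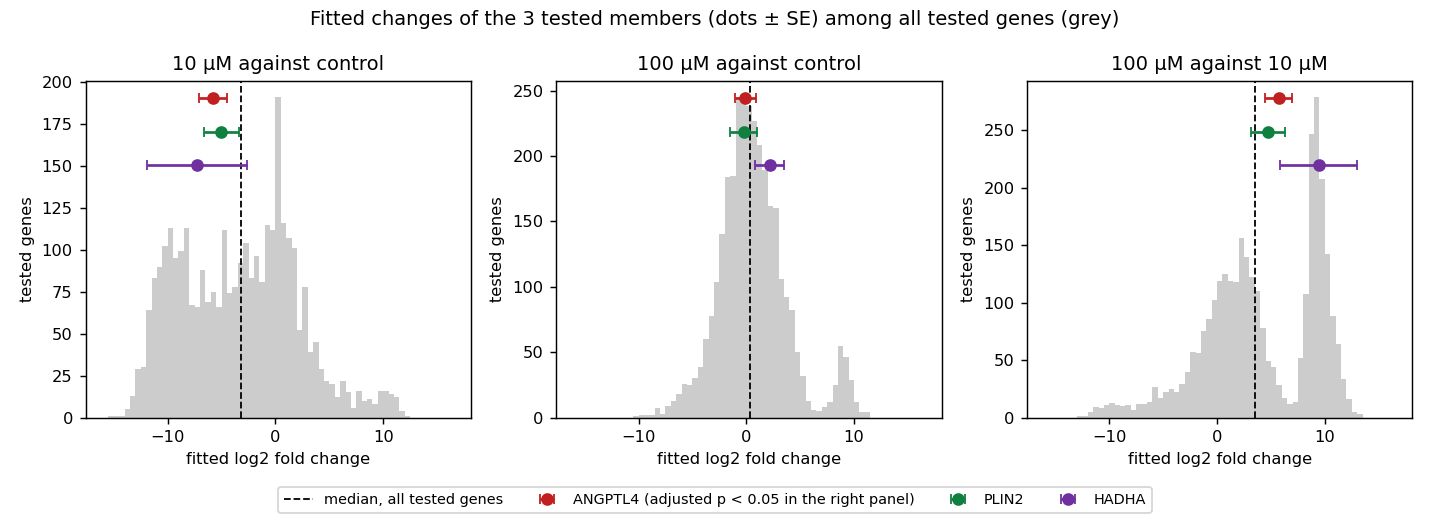
For each comparison the grey histogram gives the number of tested genes (vertical axis) by fitted log2 fold change (horizontal axis), the dashed line their median, and the coloured dots ANGPTL4, PLIN2 and HADHA with SE bars at arbitrary heights. Relative to that median ANGPTL4 lies at -2.61 at 10 µM against control and at 2.18 at 100 against 10 µM, and the all-gene distribution is itself off 0 in both.

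PLIN2 (ENSG00000147872, chromosome 9, 19108375-19149290, minus strand) followed ANGPTL4 in level. It held 196 and 34 counts in DMSO controls, 2 and 0 with 10 µM, and 1709 and 1378 with 100 µM. Its share of nuclear-gene counts was 0.0851% (0.0736 to 0.0979) and 0.0624% (0.0432 to 0.0872) in DMSO controls, 0.00816% in the first 10 µM library and under 0.0263% in the second, and 0.0828% (0.0789 to 0.0868) and 0.106% (0.101 to 0.112) at 100 µM. The first 100 µM library lay inside the range of the controls, and the 10 µM library with counts lay below both. Pooled shares were 14.5-fold lower at 10 µM than in DMSO controls (3.97 to 120), 1.14-fold higher at 100 µM than in DMSO controls (0.995 to 1.31) and 16.5-fold higher at 100 than at 10 µM (4.56 to 136), counting error only.

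None of these differences of PLIN2 passed in edgeR. The log2 fold change was -5.01 ± 1.61 (SE) at 10 µM against control, adjusted p = 0.142, and 4.75 ± 1.59 at 100 against 10 µM, adjusted p = 0.130. At 100 µM against control it was -0.26 ± 1.24, adjusted p = 0.932, with the sign turned by library sizes alone (0.42). At 10 µM against control PLIN2 passed under 1 of 12 alternatives, a fit without the second control that left 1 control library (log2 fold change -5.39). At 100 against 10 µM it passed under 2 of 12, which called 291 of 11953 and 797 of 3180 genes. Without the first 10 µM library, PLIN2 was at 0 at that dose and its fitted value of -12.55 has no meaning as a fold.

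By counting alone, the 10 µM libraries were deep enough to show both genes had their shares been those of another dose. Replicates of a dose differed by more than counting noise, and the expected counts leave that spread out. The makeup of the counts also differed between the doses, and its part was not tested. At the pooled control share, 27.3 and 12.7 counts of ANGPTL4 would have been drawn in the 2 libraries, and at the 100 µM share 47.4 and 22.1, against 1 and 1 observed. For PLIN2 the numbers were 19.8 and 9.21 at the control share and 22.5 and 10.5 at the 100 µM share, against 2 and 0. For HADHA they were 0.516 and 0.240 at the control share and 3.58 and 1.66 at the 100 µM share, against 0 and 0, so a difference from the controls was not detectable for it. FABP1 and CPT1A would have given under 1 count in either library at either share, and were observed at 1 and 2 counts and at 1 and 1.

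**Figure D3:**
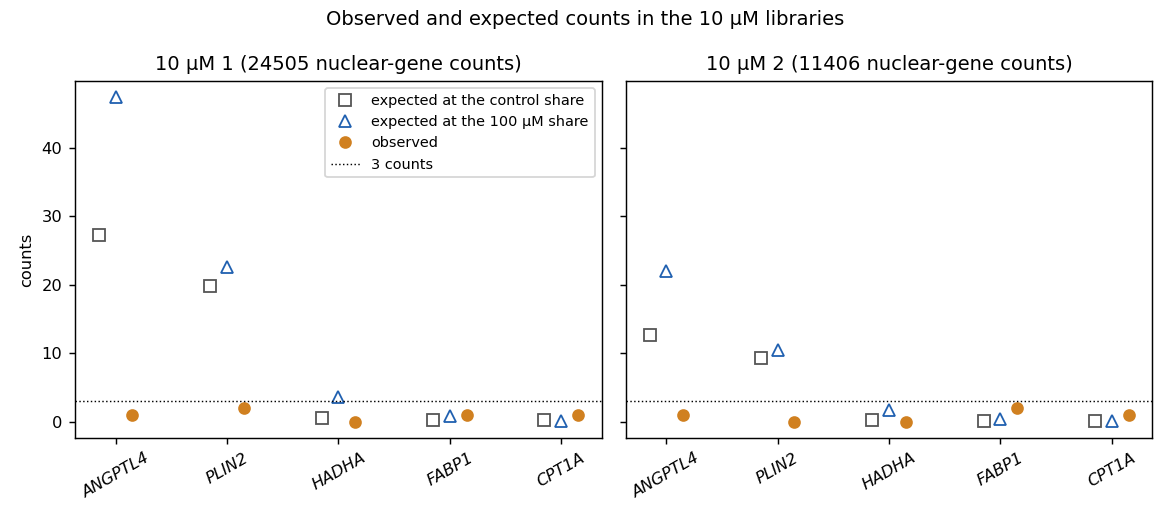
For the 2 libraries at 10 µM, the counts of 5 members (vertical axis) are shown as observed (filled dots) and as the numbers due at the pooled share of the controls (squares) and of the 100 µM libraries (triangles), with 3 counts as a dotted line. ANGPTL4 and PLIN2 were expected at 9.21 to 47.4 counts and observed at 0 to 2, while the other 3 were expected near or under 3 counts.

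HADHA (ENSG00000084754, chromosome 2, 26190635-26244726, minus strand) was the oxidation enzyme with the most counts among the members. It held 5 and 1 counts in DMSO controls, 0 and 0 with 10 µM, and 316 and 174 with 100 µM. As a share of nuclear-gene counts this was 0.00217% (0.000705 to 0.00507) and 0.00183% in DMSO controls, and 0.0153% (0.0137 to 0.0171) and 0.0134% (0.0115 to 0.0156) at 100 µM. Both 100 µM libraries lay above both controls, and between the limits of 0.0122% and 0.0263% that 0 counts leave in the 10 µM libraries. Pooled, the share at 100 µM was 6.92-fold that of the controls (3.16 to 19.0, counting error only). With 3 counts set for the 0 observed over the pooled 10 µM group, it was 1.75 times that limit. This value rests on the pooling, since the limit of the second 10 µM library alone lies above both 100 µM shares.

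In edgeR HADHA did not pass in any comparison. At 100 µM against control the log2 fold change was 2.17 ± 1.34 (SE), adjusted p = 0.405, and its direction held in all 12 alternatives, of which 11 gave an adjusted p and none called it. Its groups did not overlap in that comparison, where 48.3% of the 3145 tested nuclear genes were likewise higher in both 100 µM libraries than in both controls. Against 10 µM the adjusted p was 0.130, and at 10 µM against control 0.287, with fitted folds that depend on the handling of 0 counts and are no bounds. Reading 0 counts as a share of 0, ANGPTL4 and PLIN2 were lower at 10 µM than in both controls without overlap, as were 32% of tested nuclear genes, and higher at 100 than at 10 µM, as were 63.8%. For HADHA no such order is shown against 10 µM, since the limits there lie above its control shares and 1 of them above its 100 µM shares. The 3 tested members entered the test through the groups in which they were high, so their counts say nothing of the 5 members that were not tested.

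The partner subunit HADHB, which forms the trifunctional protein with HADHA, held 0 and 2 counts in DMSO controls, 0 and 0 with 10 µM and 322 and 491 with 100 µM. HADHA was 49.5% (45.6 to 53.5) of the pair's counts in the first 100 µM library and 26.2% (22.9 to 29.7) in the second. The 2 libraries of that dose thus differed in the balance of the subunits by more than counting error. Per kilobase of exon HADHA made up 52.4% and 28.5% of the pair.

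CPT1A (ENSG00000110090, chromosome 11, 68754620-68844410, minus strand) stayed at a few counts at every depth. It held 3 and 0 counts in DMSO controls, 1 and 1 with 10 µM and 6 and 7 with 100 µM. In the 100 µM libraries that is 2.80 and 5.23 CPM, or 0.000291% and 0.000541% of nuclear-gene counts. The pooled share at 100 µM was 0.367 times that of the controls, with a counting interval of 0.101 to 2.01 that includes no difference. At the control share 21.8 and 13.6 counts would have been drawn at 100 µM. Against 10 µM the CPT1A share was 0.0695 times (0.0157 to 0.634, counting error only), opposite in direction to ANGPTL4 and PLIN2. At the 10 µM share, which itself rests on 2 counts, 115 and 72.1 counts were due. Taken over all counts, mtDNA genes included, the ratio was 0.136 (0.0308 to 1.24), and that interval includes no difference. Per kilobase, CPT1A was 49.7% and 9.56% of the carnitine palmitoyltransferases at 100 µM, CPT1B 13.3% and 56.8% and CPT1C 37.1% and 33.6%, each on 1 to 26 counts, and CPT2 was at 0 in all 6 libraries.

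ACADM (ENSG00000117054, chromosome 1, 75724347-75787575, plus strand) was detected in 2 libraries, with 2 counts in the first at 10 µM and 2 in the second at 100 µM. It was at 0 in both controls. Its exons share 157 bases with RABGGTB on the same strand, which held 271 and 83 counts at 100 µM and 1 and 0 in DMSO controls, so the 4 counts are uncertain as to their gene. Among the straight-chain acyl-CoA dehydrogenases, which open each turn of mitochondrial oxidation for chains of different length, the very-long-chain enzyme ACADVL made up 93.7% and 97.8% of counts per kilobase at 100 µM and ACADM 0% and 0.391%. ACADVL itself held 49 and 6 counts in DMSO controls, 0 and 19 with 10 µM and 630 and 509 with 100 µM.

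FABP1 (ENSG00000163586, chromosome 2, 88122982-88128116, minus strand), whose promoter stretch above carries the core, had a count in all 6 libraries. It held 1 and 1 counts in DMSO controls, 1 and 2 with 10 µM and 68 and 43 with 100 µM. At 100 µM the share was 0.00329% (0.00256 to 0.00418) and 0.00332% (0.00240 to 0.00448) of nuclear-gene counts, nearly equal in the 2 libraries. Pooled, it was 4.70-fold that of the controls (1.27 to 39.3) and 0.396 times that at 10 µM (0.132 to 1.95), counting error only, and the last interval includes no difference. At the control share 14.5 and 9.09 counts would have been drawn at 100 µM, from a control level that rests on 2 counts. FABP1 did not pass the filter for edgeR, and under the 3 alternatives that kept it the adjusted p was 0.765 or more wherever one was given, DESeq2's Wald test giving none for either dose against control. Per kilobase FABP1 was 20.6% and 27.2% of the 4 fatty acid binding proteins at 100 µM, FABP5 71.4% and 31.6%, FABP3 8.03% and 41.2%, and FABP4 was at 0.

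PDK4 (ENSG00000004799, chromosome 7, 95583499-95596491, minus strand) was at 0 in 5 libraries and held 4 counts in the second at 100 µM. In the first 100 µM library, the deepest, 0 counts allow a share of up to 0.000145% of nuclear-gene counts. Among the 4 pyruvate dehydrogenase kinases PDK1 made up 100% and 94.4% of counts per kilobase at 100 µM and PDK4 0% and 1.05%. PDK1, the kinase of this family known as a hypoxia target, held 30 and 1 counts in DMSO controls, 1 and 0 with 10 µM and 970 and 1190 with 100 µM, and its log2 fold change of 2.39 ± 1.62 (SE) at 100 µM against control did not pass in edgeR, adjusted p = 0.441.

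CREB3L3 (ENSG00000060566, chromosome 19, 4153601-4173054, plus strand), whose promoter stretch above carries the direct repeat, held 3 counts in the first control and 0 in the other 5 libraries. In the deeper 100 µM libraries the 3-count limits are 0.000145% and 0.000232%, below the first control's 0.00130% (0.000269 to 0.00381). The exact 95% interval of 0 counts in the second of them reaches 0.000285% and so overlaps that of the first control. In the second control, at 0, the limit is 0.00550%. With 3 and 0 counts in DMSO controls and none elsewhere, no fold was computed. CPT1A, ACADM, PDK4 and CREB3L3 held 18, 4, 4 and 3 counts over the 6 libraries. For these 4 the counts give a ceiling on the level in this mitochondrial RNA rather than a response to dose.

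**Figure D4:**
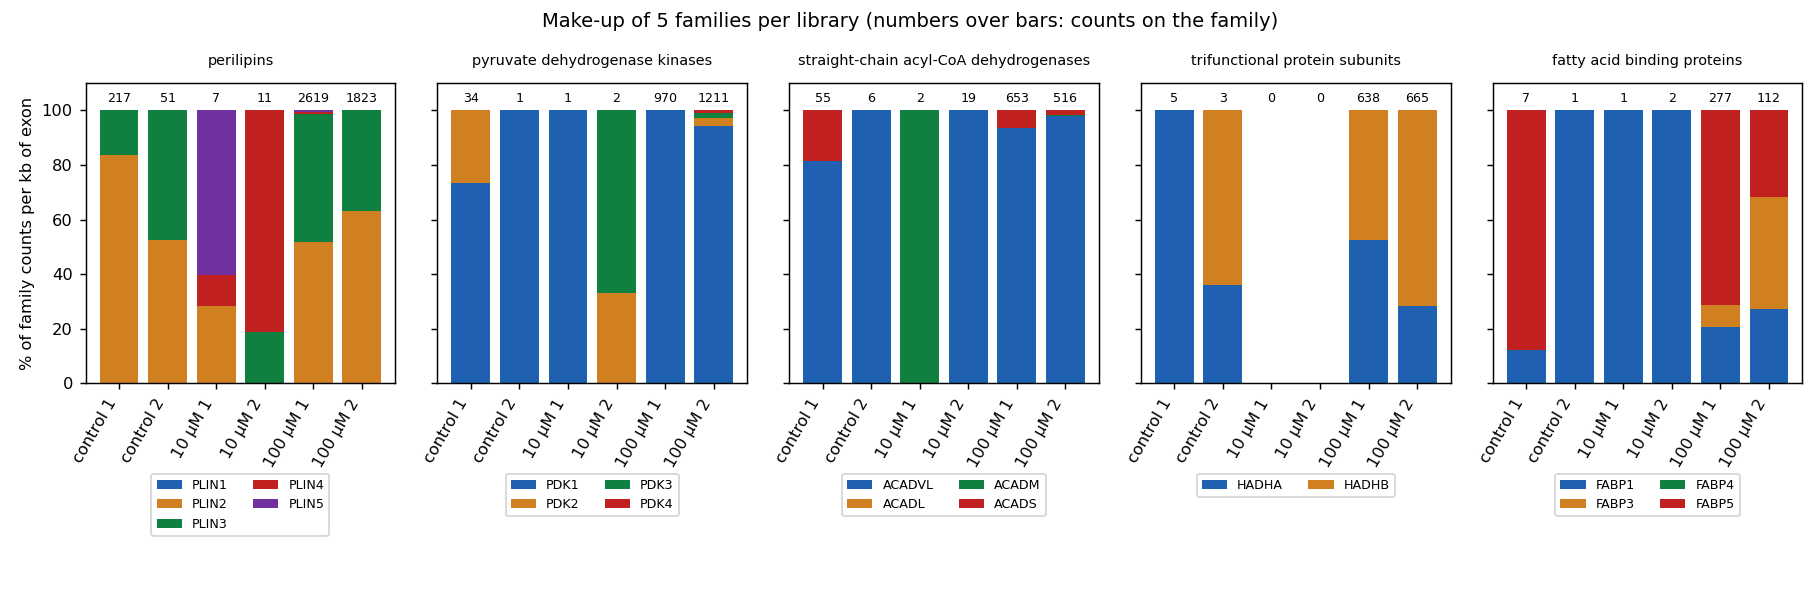
Stacked bars give each gene's percentage of its family's counts per kilobase of exon (vertical axis) in each library (horizontal axis), for the families of PLIN2, PDK4, ACADM, HADHA and FABP1, with the family's counts above each bar. At 100 µM PLIN2 and PLIN3 make up nearly all of the perilipins, PDK1 of the kinases and ACADVL of the dehydrogenases, and bars over fewer than 20 counts carry little information.

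The order of the members by share was the same in both 100 µM libraries, ANGPTL4 above PLIN2, HADHA, FABP1 and CPT1A, and the 95% intervals of neighbours in that order did not overlap within either library. Per kilobase of exon, on the CPM scale over nuclear-gene counts, ANGPTL4 stood at 762 and 808, PLIN2 at 163 and 209, HADHA at 40.2 and 35.3, FABP1 at 13.3 and 13.5 and CPT1A at 0.443 and 0.824. In the controls ANGPTL4 read 341 and 902 and PLIN2 167 and 123 on that scale, and in the first control HADHA read 5.70 and CREB3L3 4.87. At 10 µM no order can be read, since no member had more than 2 counts in a library.

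Ratios within a library do not depend on depth, and were looked at for the 2 abundant members after their values were seen. ANGPTL4 was 49.9% (44.8 to 54.9) and 78.2% (70.9 to 84.4) of the counts on ANGPTL4 and PLIN2 in DMSO controls, and 69.6% (68.3 to 70.8) and 65.3% (63.8 to 66.8) at 100 µM. The controls lay on either side of the 100 µM libraries. At 10 µM the ratio rests on 3 and 1 counts.

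Set against the 13 hepatocyte markers, which were also low at 10 µM, the 2 genes had values there with intervals that span those of the other doses. The marker sum is mostly APOA2 and GPC3, with 18293 and 11076 and with 7686 and 5136 of 31254 and 19616 counts at 100 µM. APOA2 is also among the 5 genes most like ANGPTL4, named below. The ratios are thus mainly to these 2 genes and do not measure hepatocyte content. ANGPTL4 was 8.14% and 11.9% of its counts plus the markers' in DMSO controls, 4.35% and 12.5% with 10 µM and 11.1% and 11.7% with 100 µM. Pooled, the values were 9.28% (8.33 to 10.3), 6.45% (0.791 to 21.4) and 11.3% (11.1 to 11.6). PLIN2 gave 8.18% and 3.64% in DMSO controls, 8.33% and 0% with 10 µM and 5.18% and 6.56% with 100 µM, and pooled values of 6.91% (6.07 to 7.82), 6.45% (0.791 to 21.4) and 5.72% (5.53 to 5.92). At 10 µM the counts on ANGPTL4, PLIN2 and the markers were few together, with 22 and 7 on the markers.

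**Figure D5:**
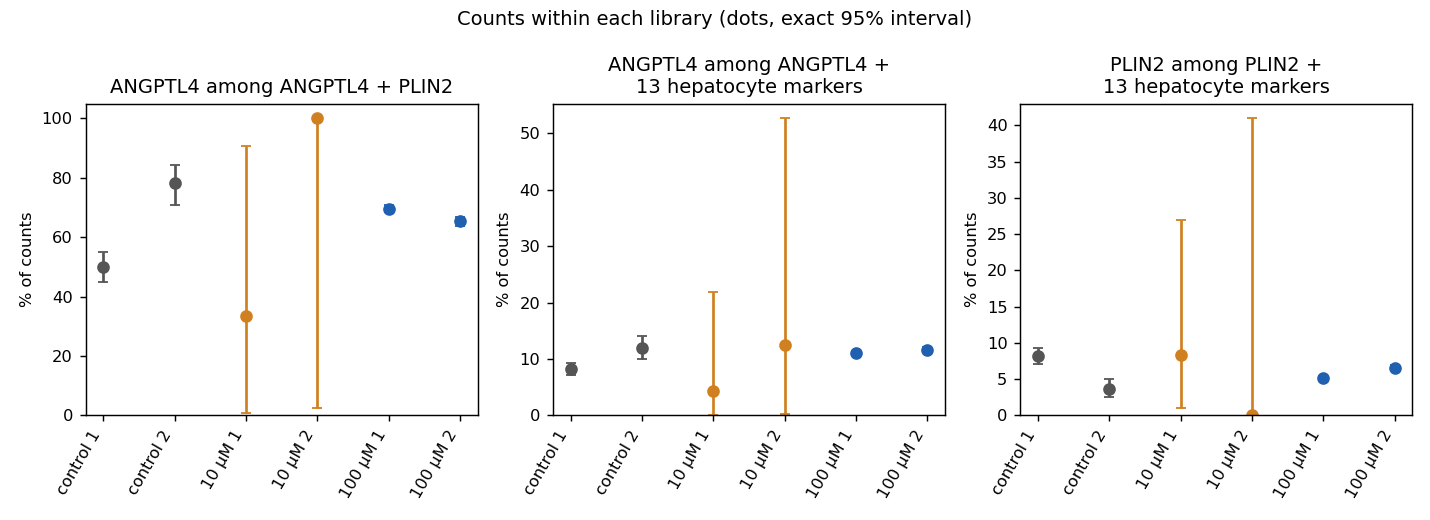
Dots give, for each library (horizontal axis), ANGPTL4 as a percentage of the counts on ANGPTL4 and PLIN2 (left), and ANGPTL4 (middle) or PLIN2 (right) as a percentage of its own counts plus those on 13 hepatocyte markers, with exact 95% intervals. The 10 µM intervals span the values at the other doses, pooled from 0.791% to 21.4% in the middle and right panels.

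Other genes of the pathway were taken from 6 lists with 102 genes, of which 27 were tested and 0 passed in any of the 3 comparisons by edgeR. An unadjusted p under 0.05 was reached by 8 at 10 µM against control, 2 at 100 µM against control and 11 at 100 against 10 µM, beside 895, 573 and 1150 of the 3180 tested genes. The median log2 fold changes of the 27 were -2.54, 0.72 and 2.99, beside -3.18, 0.35 and 3.52 over all tested genes. With genes at 0 set to the limit they were 0.61, 0.72 and 0.80, which depend on depth as said above and are not a measured rise.

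PPARA, the receptor itself, held 5 and 0 counts in DMSO controls, 0 and 0 with 10 µM and 36 and 31 with 100 µM, and was not tested. Of the 19 genes for the receptor and its partners 8 were tested and 0 passed. The partners with the highest counts per kilobase of exon, scaled to nuclear-gene counts and averaged over libraries with equal weight, were RXRB (11, 1, 30, 0, 21 and 1 counts in DMSO controls, at 10 µM and at 100 µM, 2 libraries each), RXRA (7, 14, 33, 8, 54 and 125) and the coactivator NCOA3 (203, 0, 0, 1, 631 and 95). RXRB stands first through 30 counts in the shallow first 10 µM library. RXRA, the partner with which PPARα binds in liver, had a log2 fold change of 2.04 ± 1.59 (SE) at 10 µM against control, adjusted p = 0.371 by edgeR, opposite in sign to those of ANGPTL4 and PLIN2. RXRG and PPARGC1B were at 0 in all 6 libraries.

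Among 16 genes of fatty acid uptake, activation and release 5 were tested and 0 passed. The acyl-CoA synthetases ACSL5, ACSL3 and ACSL1, which activate fatty acids for either oxidation or storage, led the list on the same scale. ACSL5 held 384 and 83 counts in DMSO controls, 0 and 0 with 10 µM and 1079 and 1053 with 100 µM, and its adjusted p was 0.0669 at 10 µM against control and 0.0571 at 100 against 10 µM by edgeR. ACSL3 held 70, 2, 3, 0, 1302 and 503 counts over the 6 libraries, and ACSL1 151, 1, 0, 0, 68 and 137.

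Of 20 genes of mitochondrial fatty acid oxidation 5 were tested and 0 passed. ETFB, a subunit of the flavoprotein that takes electrons from the acyl-CoA dehydrogenases, held 95 and 32 counts in DMSO controls, 0 and 0 with 10 µM and 1886 and 1634 with 100 µM, with an edgeR adjusted p of 0.0616 at 100 against 10 µM. ECI1, an enoyl-CoA isomerase, ran otherwise, with 0, 2, 7, 12, 64 and 31 counts. ACADVL, given above, also had counts at 10 µM, all 19 of them in the second library. ECI1 and ACADVL thus had counts at 10 µM, where ETFB and ACSL5 had none.

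Of 16 genes of peroxisomal and microsomal oxidation 4 were tested and 0 passed. Catalase (CAT) held 21, 1, 10, 1, 4 and 1 counts over the 6 libraries, and the peroxisomal transporter ABCD3 3, 0, 1, 1, 238 and 53. The log2 fold change of CAT at 100 against 10 µM was -6.88 ± 1.81 (SE), adjusted p = 0.0719 by edgeR. That is opposite in sign to ANGPTL4, ACSL5 and ETFB. At 100 µM against control it was -5.94 ± 1.73, adjusted p = 0.204. CYP4A11 and EHHADH, classical PPARα targets, were at 0 in all 6 libraries, as were ACOX2 and ABCD2.

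Of 13 genes of ketone body synthesis and fuel switch 2 were tested and 0 passed. ACAT1, a thiolase of ketone body metabolism, held 0, 1, 11, 1, 56 and 52 counts over the 6 libraries. FGF21, a fasting hormone and PPARα target, was at 0 in all 6 libraries.

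Of 18 lipid droplet genes 3 were tested and 0 passed. PLIN3, a perilipin found in most tissues, held 21 and 17 counts in DMSO controls, 0 and 1 with 10 µM and 862 and 444 with 100 µM. HILPDA, an inhibitor of droplet lipolysis, held 38, 11, 0, 0, 352 and 238, and DGAT1, which makes triglyceride, 3, 3, 10, 2, 60 and 33. Within the perilipins PLIN2 made up 83.8% and 52.5% of counts per kilobase in DMSO controls and 51.6% and 63.2% at 100 µM, with PLIN3 nearly all of the rest. At 10 µM the family had 7 and 11 counts, of which PLIN5 held 4 in the first library and PLIN4 10 in the second. PLIN1, CIDEB and CIDEC were at 0 in all 6 libraries.

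The 5 protein-coding nuclear genes whose pattern was most like that of ANGPTL4 were HSP90AB1, PTMA, NDRG1, APOA2 and SLC2A1. Pearson's r of log2 share, taken as CPM over nuclear genes with 10 CPM added, was 0.996, 0.996, 0.993, 0.991 and 0.984 over the 6 libraries, among 466 genes with a count in all 6. NDRG1 held 1569 and 921 counts in DMSO controls, 4 and 6 with 10 µM and 19679 and 18872 with 100 µM, and SLC2A1, the GLUT1 glucose transporter, 308 and 121, 1 and 1, and 2474 and 2185. All 5 were low in both 10 µM libraries, and the points share the depth and makeup of these libraries, so the likeness is a description. FABP1, the other member with a count in all 6 libraries, stood at place 356 of the 466 with an r of -0.57, on 1 or 2 counts in 4 of the libraries.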

How the data were processed

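The values analysed were counts of reads per gene, 1 table per library, as the authors deposited them. Per the submitters' processing notes the tools were FastQC, STAR, featureCounts and DESeq2 with GRCh38, without versions, while the sources used here do not give the annotation release, the strand setting or how reads on several genes or places were handled. Exon lengths in bases were, per the file headers, in the same tables. Symbols came from GENCODE release 29, whose start and end matched 54784 of 57500 genes. Sample titles gave the groups and replicate numbers, 0 columns were left without a sample, and 0 lines named no gene.

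Shares were computed over counts on nuclear genes, with exact 95% binomial intervals and a limit of 3 counts for a gene at 0, in Python 3.11.15 with pandas 2.3.3, numpy 2.4.6 and scipy 1.17.1. Pooled ratios carry exact conditional counting intervals. Replicates were compared first by a chi-square test over genes, whose statistic per degree of freedom was 39.4, 12.9 and 35.2 in the 3 groups, so no pair agreed to within counting noise, which does not show whether they are separate cultures. Members were tested in edgeR 4.0.16 under R 4.3.3 (filterByExpr, TMM over all kept genes, robust quasi-likelihood fit of all 6 libraries as group means, two-sided), adjusted by Benjamini-Hochberg over 3180 genes at a threshold of 0.05. The filter kept 3 of the 8 members. Alternatives were DESeq2 size factors, library sizes alone, nuclear genes only, the Wald test of DESeq2 1.42.0, no low-count filter, a 5 CPM minimum on the mean, a fit of just the 4 libraries in a comparison, replicate number as a block, and leaving out each library; the shares were also taken over other denominators. The fitting code was tested on simulated counts.

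The members and all lists were chosen with earlier results of these data known. Named were all 8 members, in each of 6 other lists every gene that passed and the 3 with the most counts per kilobase (scaled to nuclear-gene counts, libraries weighted equally), and the 5 genes most like ANGPTL4; some genes that met the rule are not reported here. Family members beside the 8, genes at 0 and exon neighbours were named in addition, after their values were seen. Plots were drawn with matplotlib 3.10.9.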

Additional observations from a re-analysis of the deposited data

How the results depend on the processing

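The number of members that passed moved with the processing, between 0 and 2. It was out of 3 tested, except 6 with a mean of at least 5 CPM, 8 without a filter, and with DESeq2's Wald test those to which it gave an adjusted p. At 10 µM against control it was 0, where 19 of 3180 genes were called. It was 1 with a mean of at least 5 CPM (95 of 11953 genes called) and 1 with a replicate block (75 of 3180). At 100 against 10 µM it was 1, where 91 of 3180 genes were called. It was 0 with DESeq2 size factors (79 of 3180 called), nuclear genes only (0 of 3145), DESeq2's Wald test (925 of 6691) or no filter (3 of 19632). It was 2 with a mean of at least 5 CPM (291 of 11953) or only the 4 libraries compared (797 of 3180). Member calls thus moved along with calls over all genes in several settings. Fits without 1 library are given above by effect size. Where a group is left with 1 library, that library is assumed to vary like those of the other groups. At 100 µM against control it was 0 in all 12 alternatives. The replicate numbers do not pair the libraries, as deviations of same-numbered libraries correlated at 0.000331, 0.00315 and -0.0222, and the block changed no other call of a member than that of ANGPTL4 at 10 µM against control.

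At 100 µM against control the log2 fold change of ANGPTL4, -0.08, turned to 0.41 with library sizes alone, 0.67 without a filter, 1.02 with a mean of at least 5 CPM, 0.033 with only the 4 libraries compared and 0.47 without the second control, with -0.41 to 0.47 over the libraries left out in turn. That of PLIN2, -0.26, turned to 0.42 with library sizes alone, 0.38 without a filter, 0.72 with a mean of at least 5 CPM and 0.39 without the first control, with -0.58 to 0.39 over the libraries left out. None of these passed. The causes were not tested.

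The members' share of nuclear-gene counts at 10 µM, 0.0318%, became 0.0148% with mtDNA genes in the denominator, and that at 100 µM, 0.308%, became 0.336% without the 10 most abundant genes. Leaving out libraries gave 0.175% to 0.290% in the controls, 0.0286% to 0.0351% at 10 µM and 0.291% to 0.325% at 100 µM. Over all genes, calls at 10 µM against control numbered 19, but 7 with library sizes alone or no filter, 1 with nuclear genes only, 95 with a mean of at least 5 CPM, 12 with only the 4 libraries compared, 75 with the block and 0 to 624 without each library. At 100 against 10 µM they numbered 91, but 0 with nuclear genes only, 925 with DESeq2's Wald test, 3 with no filter, 291 with a mean of at least 5 CPM, 797 with only the 4 libraries and 0 to 13 without each library. At 100 µM against control they numbered 0, but 4 with DESeq2 size factors, 11 with DESeq2's Wald test, 22 with the block and 0 to 43 without each library. Depth at 10 µM limits every statement on the 6 members other than ANGPTL4 and PLIN2, since at the control or 100 µM share at most 3.58 counts of each were expected there. It also limits the size of the differences of ANGPTL4 and PLIN2, which held 1 and 1 and 2 and 0 counts in the 10 µM libraries.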
